A study of Mus musculus with 6 samples.

Results

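The comparison set passage 27 (P27) of 661W cells against passage 26 (P26), with growth condition held constant. It used 4 of the 6 libraries of the series: P27 and P26, each with 1 culture grown in complete media (serum-fed) and 1 culture kept for 72 h without serum (serum-starved). All genes of the count table entered, 38776 after unusable names were left out, and 15762 had enough counts to be tested. The other 2 libraries, from passage 24 (P24), were left out of the test and are given beside some values. 661W is a mouse line that was derived from a retinal tumour driven by SV40 T antigen and is used as a model of cone photoreceptors. All cultures of the series are of this 1 line, had no genetic change or drug added, and were split 1 to 5 each week in medium with fetal calf serum.

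A passage number counts how often a culture has been split. In an immortal line the splits select for cells that divide well, and clones with different genomes or different states can take over or be lost, so the same line can carry different messenger RNAs in the same laboratory a few splits apart. Whether selection or a change of clones had a part in the differences below was not tested. The gene groups read below include the myogenic programme, in which MyoD and myogenin switch on the contractile genes. They also include the antigen presentation programme, in which interferon and NF-kB signals raise the class I molecules that show peptides to T cells. No source used here gives the day, serum batch or handling of each culture, or says which cultures were grown or prepared together. Passage number therefore cannot be told apart from such differences. With 1 library per passage and growth condition, the 2 libraries of a passage differ in growth condition and are not repeats of a culture. The p-values rest on how far the serum-fed and serum-starved ratios of a gene disagree, with this spread partly shared across genes. The spread between repeat cultures of a passage was not measured.

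The 4 libraries held 76360162 (P27 serum-fed), 87178722 (P27 serum-starved), 74591036 (P26 serum-fed) and 76932958 (P26 serum-starved) counts. Levels are CPM, a gene's counts scaled to a common library total, which are not scaled by gene length, so they are compared between libraries and not between genes. Growth condition gave the largest axis of difference (59.1% of the variance of log2 CPM), and passage separated the libraries on the second (29.7%), where the serum-fed pair lay farther apart than the serum-starved pair. Mitochondrial genes took 1.63% and 1.59% of counts in P27, against 2.04% and 2.03% in P26. The median log2 ratio of the genes of a chromosome lay between -0.09 and 0.07 in the serum-fed pair and between -0.10 and 0.14 in the serum-starved pair over 20 chromosomes. By quartile of exon length the serum-fed pair had medians of -0.07, -0.02, 0.02 and 0.11 from the shortest to the longest genes, and the serum-starved pair -0.02 to 0.02. Of the genes that mark the sex of the animal the line came from, 4 Y-linked genes were tested, with medians of -0.06 and -0.08.

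The label of the line was checked against photoreceptor genes. Over 14 cone genes the summed level was 6.80 and 9.47 CPM in the serum-fed and serum-starved P27 libraries, against 4.88 and 9.45 CPM in P26. Cone arrestin (Arr3) and the potassium channel subunit gene Kcnv2 had no count in any of the 4 libraries, and the middle-wave cone opsin gene Opn1mw and the cone phosphodiesterase gene Pde6c had at most 2. Cone transducin (Gnat2) had 0.930 and 0.872 CPM in P27, against 1.97 and 0.767 CPM in P26. Of the 14 rod genes, Nrl, Nr2e3, Cnga1 and Gngt1 had no count. The rod list summed to 725 and 599 CPM in P27, against 625 and 523 CPM in P26. Most of this was Gnb1, with 716 and 590 CPM in P27, against 617 and 516 CPM in P26. Rom1, which the paper names with Gnat2 as expressed in these cells, had 6.33 and 6.87 CPM in P27, against 6.23 and 5.24 CPM in P26. Markers of macrophages summed to 2.14 to 2.34 CPM in P27 and 2.25 to 4.32 CPM in P26, and those of endothelial cells to 2.50 to 2.53 CPM in P27 and 2.95 to 7.19 CPM in P26.

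One pattern crossed the passages. The serum-fed P27 and the serum-starved P26 library stood together, apart from the other 4 libraries of the series, in 15 genes that differed at least 4-fold, of which 12 are annotated as pseudogenes. Gm10075, a processed pseudogene, had 72.1 CPM in the serum-fed and 0.0918 CPM in the serum-starved P27 library, against 0.0804 and 65.7 CPM in P26. Gm10263 ran the other way, with 1.10 and 22.2 CPM in P27, against 25.6 and 1.26 CPM in P26. By the same rule the serum-starved P27 and P26 libraries shared 57 genes, the 2 P24 libraries 18 and the serum-fed P26 and P24 libraries 12. The 2 libraries of P27 shared only 5 genes and the 2 of P26 shared 0, fewer than the 15 of the crossing pair. None of the other 14 pairs shared a pseudogene. The 15 genes together took at most 0.0187% of the counts of a library. Because 1 library of the crossing pair is of each passage, the pattern adds to the spread around the passage difference and not to the difference itself.

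**Figure D1:**
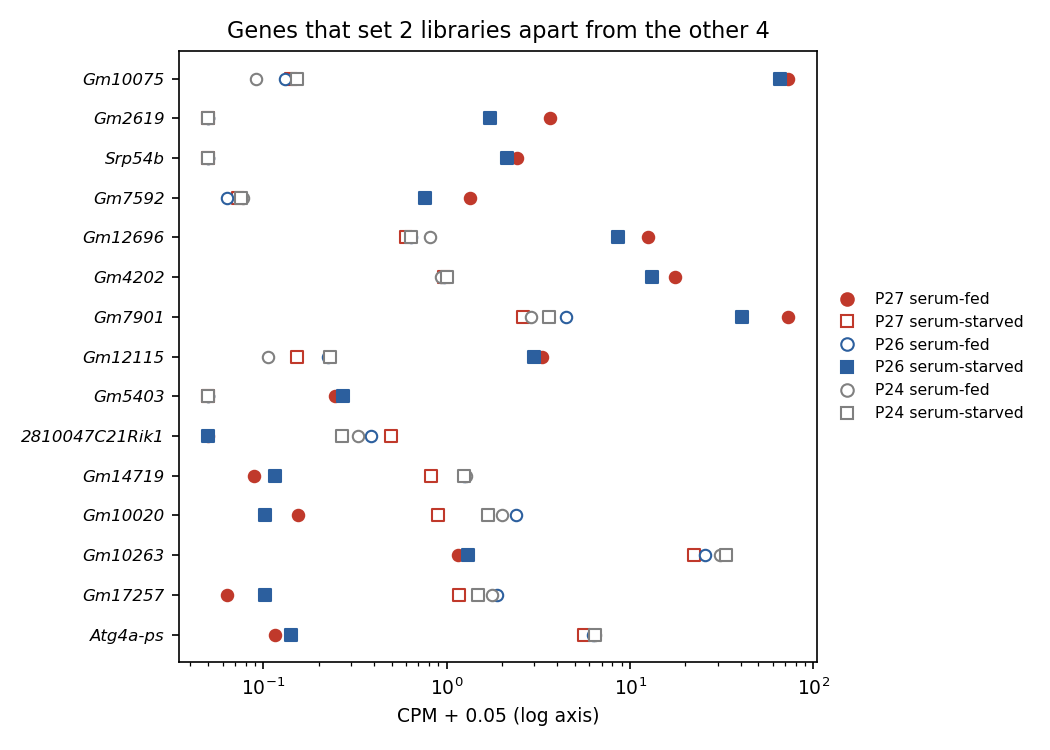
CPM plus 0.05 (x axis, log scale) of the 15 genes (rows) that set the serum-fed P27 and serum-starved P26 libraries (filled symbols) apart from the other 4 libraries (open symbols), with circles for serum-fed and squares for serum-starved cells. The filled symbols lie together in every row and at least 4-fold from all open ones, as for Gm10075, at 72.1 and 65.7 CPM.

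Of the 15762 genes, 1 passed edgeR's quasi-likelihood test at an adjusted p under 0.05 as higher in P27 (0.00634%) and 0 as lower (0%). At an unadjusted p under 0.05, 1130 genes were higher (7.17%) and 1190 lower (7.55%). DESeq2, with the same terms, called 250 higher (1.84%) and 255 lower (1.87%) of the 13623 genes to which it gave an adjusted p. A count that uses no test was taken from the same 4 libraries. In it, 156 genes were at least 2-fold higher in P27 in both the serum-fed and the serum-starved pair (0.99%). A further 236 were at least 2-fold lower in both (1.5%). Most of these genes were not called by DESeq2, so the sizes of the counts do not show that they hold the same genes. The 4 libraries leave 1 degree of freedom per gene for the spread (a biological coefficient of variation of 0.189 was fitted over all genes), and 21 genes shared the next adjusted p of 0.066.

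The 2 pairs moved partly together. In 10208 genes (64.8%) the ratio of P27 to P26 had the same sign in both pairs, and across genes the log2 ratios correlated at r = 0.322 (n = 15762, genes that share the same 4 libraries and are not independent). The serum-fed pair was the wider, with an SD of the log2 ratio of 0.72 against 0.50 in the serum-starved pair, and 1986 genes differed at least 2-fold in it, against 866. Only 53 genes differed at least 2-fold in opposite directions.

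**Figure D2:**
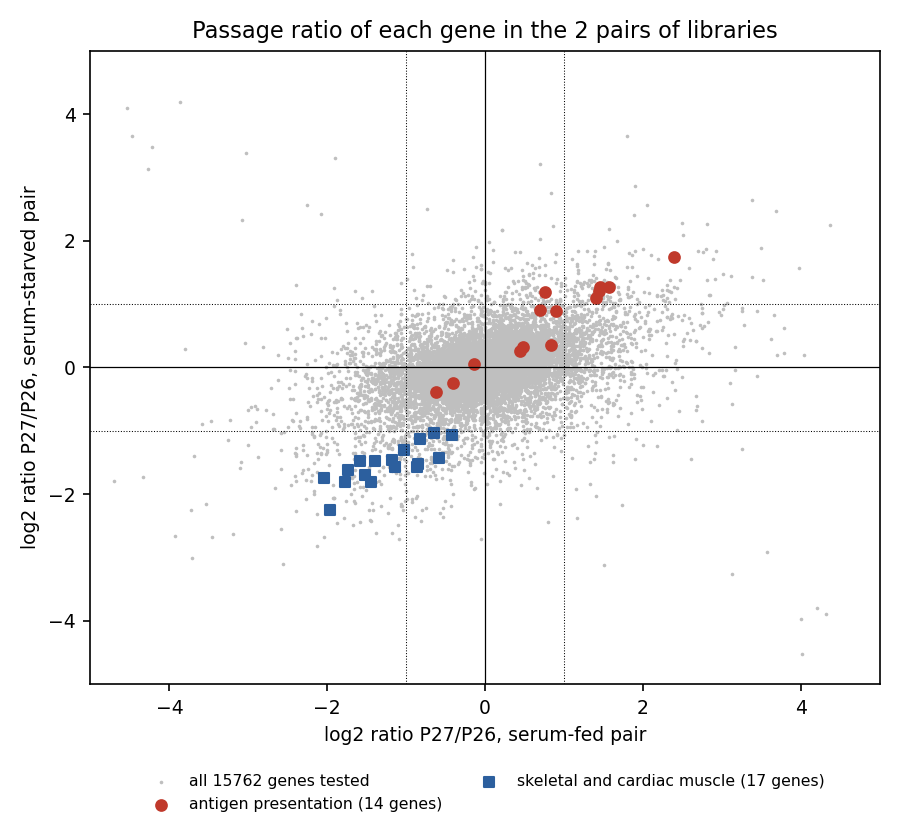
Log2 ratio of P27 over P26 in the serum-fed pair (x axis) and in the serum-starved pair (y axis), 1 point per gene tested, with dotted lines at 2-fold and 9 genes beyond the axes. The 17 muscle genes tested (squares) are all below 0 on both axes, and most of the 14 antigen presentation genes (larger circles) are above 0 on both.

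The gene that passed the test was H2-Q6, a class Ib gene of the mouse major histocompatibility complex whose products sit on the cell surface like the classical class I molecules. It had 73.6 CPM in the serum-fed and 119.5 CPM in the serum-starved P27 library, against 12.7 and 24.4 CPM in P26, and the passages did not overlap. Over all genes, both P27 libraries lay above both P26 libraries in 18% and below both in 15.4%, so a gap of this kind alone sets no gene apart. H2-Q6 rose 5.26-fold in P27 (log2 2.39 ± 0.15, SE, edgeR adjusted p = 0.0386). The P24 libraries, with 13.5 and 30.3 CPM, lay beside P26. The call was lost with limma-voom (adjusted p = 0.0584), without growth condition in the fit (0.965) and, in a fit of all 6 libraries, without the serum-fed P27 library (0.181), while the fold change stayed between log2 2.23 and 2.57 in every setting tried. H2-Q6 (chr17:35424850-35430055 on GRCm38, plus strand) is one of a row of H2-Q genes whose sequences are nearly identical, and reads that match several of them can be dropped or divided unevenly, so the level of each single H2-Q gene is uncertain.

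The classical class I genes and the machinery that loads them had higher levels in P27 too, short of the adjusted threshold. H2-K1, a classical class I heavy chain, had 1242 and 1615 CPM in the serum-fed and serum-starved P27 libraries, against 409.7 and 671 CPM in P26 (2.67-fold, log2 1.42 ± 0.18, edgeR adjusted p = 0.0731). H2-D1, the other classical heavy chain (chosen after its values were seen), had 2149 and 2305 CPM in P27, against 772 and 992 CPM in P26 (2.51-fold, log2 1.33 ± 0.19, edgeR adjusted p = 0.0941). In both genes the lower P27 library was above the higher P26 library, and P24 (373 and 726 CPM of H2-K1, 848 and 1199.5 CPM of H2-D1) was nearer to P26.

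Neighbouring class I genes gave the same picture. H2-Q7, the near twin of H2-Q6, had 94.8 and 97.2 CPM in P27, against 12.2 and 27.1 CPM in P26 (log2 2.38 ± 0.27). H2-Q4 had 351 and 489 CPM in P27, against 126 and 203 CPM in P26 (log2 1.36 ± 0.15). H2-T23 (chosen after its values were seen) encodes Qa-1, a ligand of inhibitory receptors on natural killer cells. It had 56.4 and 54.3 CPM in P27, against 34.2 and 28.7 CPM in P26 (log2 0.80 ± 0.16). The passages did not overlap in any of these.

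The peptide supply chain was split. Psmb9 and Psmb8 encode immunoproteasome subunits, which replace standard catalytic subunits and cut peptides that suit class I molecules. Psmb9 had 25.4 and 27.1 CPM in P27, against 4.73 and 8.02 CPM in P26 (4.20-fold, log2 2.07 ± 0.23, edgeR adjusted p = 0.066). Psmb8 had 127 and 135 CPM in P27, against 47.0 and 62.8 CPM in P26 (log2 1.25 ± 0.14, same adjusted p). The third such subunit, Psmb10 (chosen after its values were seen), did not follow. It had 45.8 and 50.6 CPM in P27, against 59.6 and 60.0 CPM in P26.

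Tap1 and Tap2 form the transporter that carries peptides into the endoplasmic reticulum. Both, like B2m and Nlrc5 below, were chosen after their values were seen. Tap1 had 94.7 and 130.2 CPM in P27, against 54.9 and 56.5 CPM in P26, and Tap2 had 64.1 and 88.3 CPM in P27, against 33.8 and 47.3 CPM in P26. The light chain gene B2m, which lies on chromosome 2, had 2686 and 2392 CPM in P27, against 1475 and 1871 CPM in P26 (log2 0.59 ± 0.21, edgeR adjusted p = 0.295). Nlrc5, the transactivator of class I promoters, showed no such gap, with 54.0 and 68.8 CPM in P27, against 58.6 and 66.2 CPM in P26.

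Over the whole antigen presentation list, 14 of 14 genes were tested. Of these, 11 were higher in P27 in both pairs and 2 were lower in both (64.8% of all genes had the same sign in both, in either direction). The median log2 ratio was 0.80 in the serum-fed and 0.90 in the serum-starved pair, beside 0.00 and -0.01 over all genes. An unadjusted p under 0.05 was reached by 11 as higher and by 0 as lower (7.17% and 7.55% of all genes). DESeq2 called 8 as higher (1.84%), and 5 were at least 2-fold higher in both pairs (0.99%). H2-Q6 and H2-Q7 were not on this list. No gene of it passed edgeR's adjusted threshold.

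**Figure D3:**
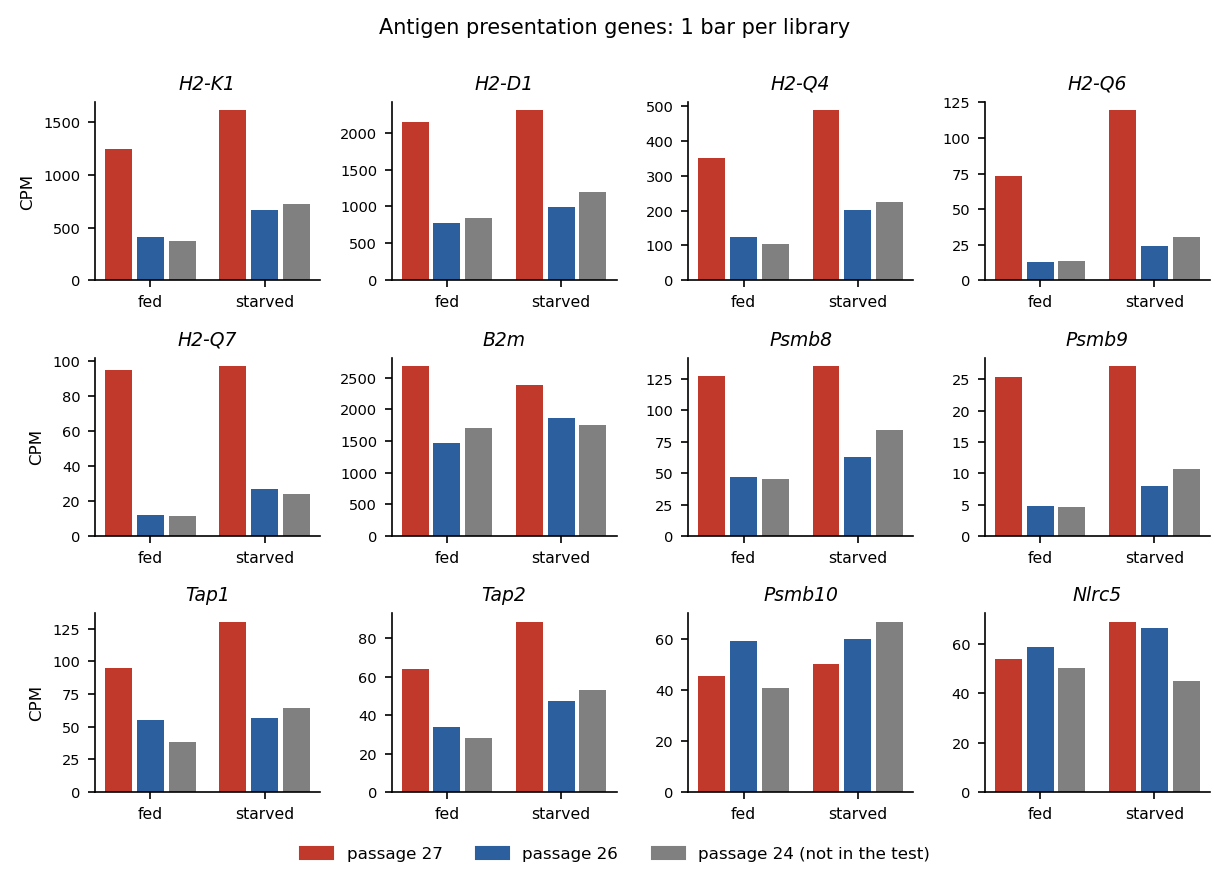
CPM (y axis, from 0, a scale for each gene) of 12 antigen presentation genes, 1 bar per library, in serum-fed (left) and serum-starved (right) cells of P27 (red), P26 (blue) and P24 (grey, not in the test). The red bars are the tallest of both groups in 10 genes, as for H2-K1 at 1242 and 1615 CPM, and not in Psmb10, with 45.8 and 50.6 CPM, nor in both groups for Nlrc5.

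The class I genes lie together on chromosome 17, so the stretch from H2-K1 to H2-M2 (chr17:33996017-37483552, chosen after the values were seen) was read as a whole. Of its 125 genes tested, 16 (12.8%) were at least 2-fold higher in P27 in both pairs, 10 of which are H2 genes, and 2 were at least 2-fold lower in both, beside 0.99% and 1.5% of all genes. One of these 2 is itself an H2 gene, H2-M5 (chosen after its values were seen), with 0.249 and 1.55 CPM in P27, against 1.58 and 3.20 CPM in P26. The 105 genes of the stretch that are not named H2 had medians of 0.01 in the serum-fed and 0.24 in the serum-starved pair. Of these 105, 17 reached an unadjusted p under 0.05 as higher and 3 as lower (7.17% and 7.55% of all genes). The 17 include Psmb8, Psmb9, Tap1 and Tap2, described above, and Gm11131, whose span overlaps that of H2-Q4. They are thus not a set of genes unrelated to antigen presentation.

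The promoters of these genes were read from RefSeq (build GRCm38.p6, 250 bases before to 50 after the start), to show the letters that 5 of the class I genes described above hold. Capitals mark GGGGATTCC, the NF-kB type motif of the class I enhancer, and TTTCACTTC, the reverse complement of a match to the interferon response motif GAANNGAAA. Both were searched on both strands, and they were chosen after the sequences had been seen. The stretches are chr17:35424648-35424726 (H2-Q6, plus strand), chr17:35438992-35439070 (H2-Q7, plus), chr17:34000409-34000487 (H2-K1, minus), chr17:35262894-35262972 (H2-D1, plus) and chr17:35379414-35379492 (H2-Q4, plus).
H2-Q6: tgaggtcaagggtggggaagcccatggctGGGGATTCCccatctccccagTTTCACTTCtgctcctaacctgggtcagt
H2-Q7: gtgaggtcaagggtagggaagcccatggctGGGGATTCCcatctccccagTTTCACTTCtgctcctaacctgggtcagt
H2-K1: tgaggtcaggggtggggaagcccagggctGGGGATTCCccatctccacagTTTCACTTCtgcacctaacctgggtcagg
H2-D1: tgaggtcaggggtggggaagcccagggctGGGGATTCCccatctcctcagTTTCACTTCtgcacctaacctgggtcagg
H2-Q4: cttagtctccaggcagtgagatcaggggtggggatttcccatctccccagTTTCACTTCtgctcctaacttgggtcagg
The interferon type motif began 152 bases before the start in H2-Q6, 113 in H2-Q7, 150 in H2-D1 and 153 in H2-Q4, and 90 before one of the 2 starts of H2-K1. The exact letters GGGGATTCC stood in all of them except H2-Q4, which reads ggggatttccc at that place. Variants of these letters were not searched, so H2-Q4 cannot be said to lack a motif of the NF-kB type. Of 32851 promoters, 0.2496% held the NF-kB letters, 7.516% the interferon type motif and 0.03044% (10 promoters) both. Of the 14 antigen presentation genes tested, 11 had a promoter in the table, of which 3 (H2-K1, H2-D1 and H2-Q4) held the interferon type motif and 2 the NF-kB letters, while Psmb9 and Tap1 held neither. The 7 tested genes with both were H2-Q6, H2-Q7, H2-K1 and H2-D1, whose log2 fold changes were 1.33 to 2.39, and Hyal2 (-0.13), R3hdm2 (0.24) and Vash1 (0.75). A match is a description of the letters and was not tested as a site.

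Interferon-stimulated genes were read beside these, since interferon raises both groups. Irf7, the factor that amplifies the type I interferon response, had 231 and 260.4 CPM in the serum-fed and serum-starved P27 libraries, against 134 and 129 CPM in P26 (log2 0.88 ± 0.14, edgeR adjusted p = 0.116). Oas2, a sensor of double-stranded RNA, had 42.2 and 61.4 CPM in P27, against 21.6 and 35.0 CPM in P26. Dhx58, a regulator of RIG-I like receptors, had 66.1 and 54.0 CPM in P27, against 42.2 and 31.0 CPM in P26. In these 3 genes P27 was higher in both pairs, but most other members parted by growth condition. Of the 30 genes, 12 were higher in P27 in the serum-fed pair and 29 in the serum-starved pair, with medians of -0.08 and 0.42. An unadjusted p under 0.05 was reached by 6, all as higher (7.17% of all genes).

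Of the lists with at least 5 genes tested, the muscle genes had the lowest medians in both pairs. Tnnt2, cardiac troponin T, which is also made in embryonic skeletal muscle, had 17.3 and 38.6 CPM in the serum-fed and serum-starved P27 libraries, against 70.3 and 129 CPM in P26. Both P27 values lay below both P26 values, and the difference was log2 -1.89 ± 0.15 (3.71-fold lower, edgeR adjusted p = 0.066, not called). Ttn, the giant spring of the sarcomere, had 2.91 and 13.3 CPM in P27, against 11.2 and 62.9 CPM in P26 (log2 -2.12 ± 0.19, same adjusted p). For Ttn the passages overlapped in level, because starved cells of either passage had more than fed ones, and P27 was lower within each growth condition.

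The regulators of the programme were lower to unequal degrees. Myog, encoding myogenin, the factor that commits myoblasts to differentiate, had 10.6 and 53.3 CPM in P27, against 31.5 and 148 CPM in P26 (2.90-fold lower, log2 -1.53 ± 0.14, edgeR adjusted p = 0.066). Myod1, the factor upstream of it (chosen after its values were seen), had 24.6 and 28.0 CPM in P27, against 32.2 and 58.7 CPM in P26 (log2 -0.75 ± 0.21, edgeR adjusted p = 0.24). Myf5, the other early myogenic factor, had no count, and Myf6 had 2 counts over the 4 libraries.

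The contractile and fusion genes had ratios like that of Myog. Myh3, embryonic myosin heavy chain, had 11.7 and 79.2 CPM in P27, against 30.04 and 219.6 CPM in P26 (log2 -1.44 ± 0.13). Actc1, cardiac actin, had 3.80 and 23.7 CPM in P27, against 12.9 and 83.0 CPM in P26 (log2 -1.80 ± 0.17). Mylpf, the regulatory light chain of fast myosin, had 9.44 and 31.0 CPM in P27, against 27.1 and 114 CPM in P26 (log2 -1.72 ± 0.17). The edgeR adjusted p was 0.066 for each of these 3.

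Tmem8c (chosen after its values were seen) encodes myomaker, the membrane protein that myoblasts need to fuse. It had 2.67 and 11.4 CPM in P27, against 7.59 and 36.8 CPM in P26 (log2 -1.62 ± 0.20). Cdh15, M-cadherin, which joins myogenic cells, had 40.4 and 41.8 CPM in P27, against 93.3 and 100.2 CPM in P26 (log2 -1.25 ± 0.13). Cdh15 differed little between growth conditions, and its passages did not overlap.

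**Figure D4:**
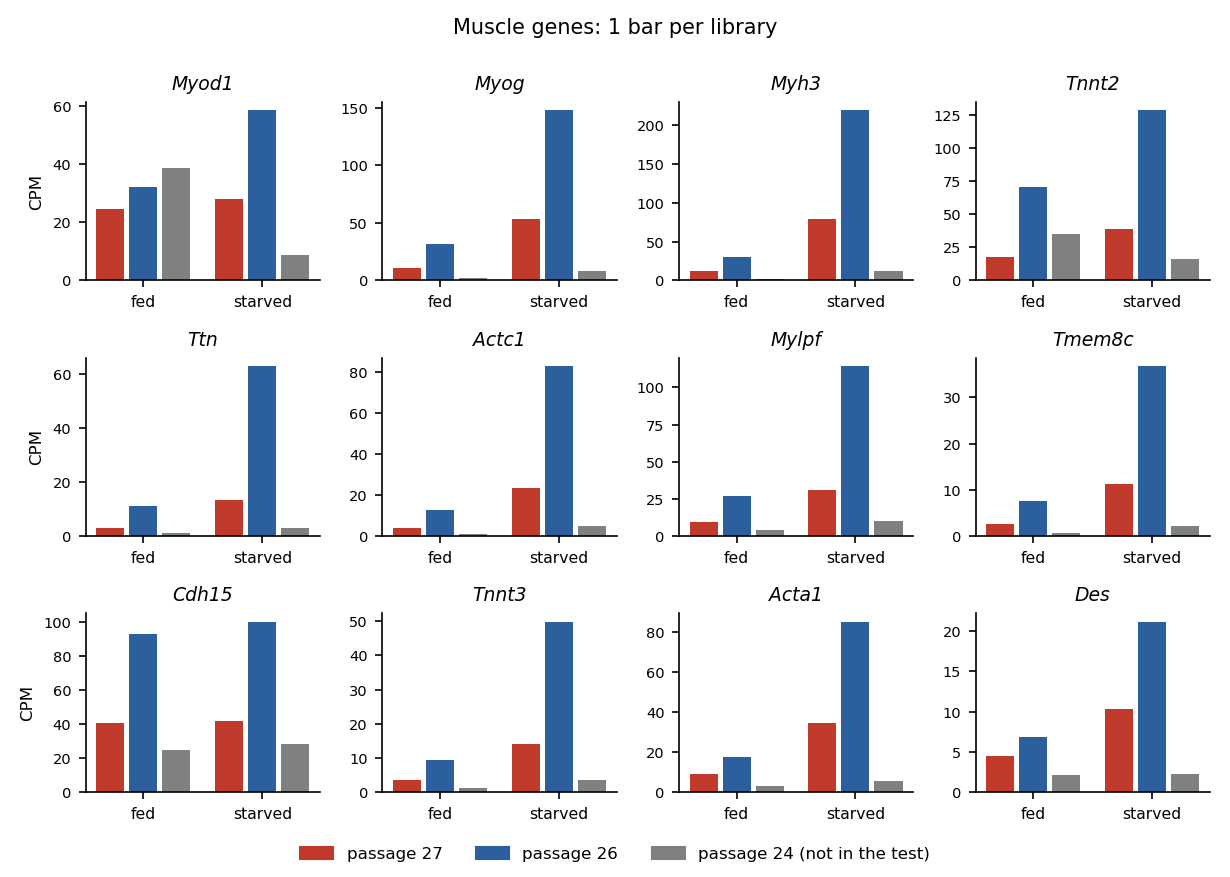
CPM (y axis, from 0, a scale for each gene) of 12 muscle genes, 1 bar per library, in serum-fed (left) and serum-starved (right) cells of P27 (red), P26 (blue) and P24 (grey, not in the test). The red bar is below the blue bar in every gene and growth condition, as for Myog, at 10.6 and 53.3 CPM against 31.5 and 148 CPM.

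Of the 20 genes on the muscle list 17 were tested. All 17 of these were lower in P27 in both pairs (64.8% of all genes had the same sign in both, in either direction). The median log2 ratio of the list was -1.18 in the serum-fed and -1.52 in the serum-starved pair. An unadjusted p under 0.05 was reached by 17 (7.55% of all genes), DESeq2 called 16 (1.87%), and 11 were at least 2-fold lower in both pairs (1.5%). None passed edgeR's adjusted threshold. The list summed to 113 and 368 CPM in P27, against 272 and 1066 CPM in P26, and to 95.2 and 79.5 CPM in P24. P27 thus lay between P24 and P26 in both growth conditions. P24 had 2.36 and 8.08 CPM of Myog and 1.85 and 11.8 CPM of Myh3, below either later passage within each growth condition, while Myod1 and Tnnt2 in serum-fed cells of P24, with 38.9 and 34.9 CPM, were above P27. The levels did not follow the passage number in 1 direction. In bulk RNA, fewer cells in the myogenic state and less of these messengers per cell cannot be told apart.

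The promoters of Myog (chr1:134289900-134289988, plus strand), Myh3 (chr11:67078104-67078192, plus) and Tnnt2 (chr1:135836091-135836216, plus) are shown for the letters that myogenic factors are known to bind. Capitals mark CTANNNNTA, a loose form of the MEF2 motif that allows any base at its middle places, in the first 2. In Tnnt2 they mark CAGCTG, an E-box of the type MyoD and myogenin prefer. Both strands were searched for both motifs. Myog and Myh3 held no such E-box, and Actc1, which was searched too, held neither motif.
Myog: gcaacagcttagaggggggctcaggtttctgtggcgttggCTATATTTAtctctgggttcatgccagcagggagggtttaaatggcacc
Myh3: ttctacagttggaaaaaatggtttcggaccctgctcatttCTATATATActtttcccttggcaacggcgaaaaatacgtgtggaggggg
Tnnt2: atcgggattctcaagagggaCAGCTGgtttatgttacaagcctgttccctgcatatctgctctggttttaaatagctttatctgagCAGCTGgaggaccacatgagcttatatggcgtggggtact
The MEF2 type motif began 64 bases before the start of Myog and 156 before that of Myh3, and the E-boxes 223 and 157 before one of the 2 starts of Tnnt2. Of the 17 muscle genes tested, 13 had a promoter in the table, of which 9 held the MEF2 type motif and 7 the E-box. Of all 32851 promoters, 21.04% held the MEF2 type motif and 16.3% the E-box. Where a window holds no match, that says nothing about the factor, and none of these letters was tested as a site.

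Most smooth muscle and stress fibre genes also had lower levels in P27, and Tagln and Acta2 had another order over the passages. Tagln, encoding the actin-binding protein transgelin, had 289.9 and 237 CPM in P27, against 608 and 433 CPM in P26 (1.98-fold lower, log2 -0.99 ± 0.15, edgeR adjusted p = 0.11). Acta2, smooth muscle actin, had 393 and 531 CPM in P27, against 1012 and 872 CPM in P26 (log2 -1.06 ± 0.21). P24 was the highest of all, with 1163 and 1349 CPM of Tagln and 2106 and 1805 CPM of Acta2, unlike the skeletal genes. The passages did not overlap in either gene.

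Ankrd1 and Cyr61 are targets of the mechanosensitive factors YAP and SRF. Ankrd1 had 461 and 246 CPM in P27, against 1095 and 450.5 CPM in P26, and Cyr61 had 495 and 380.4 CPM in P27, against 845 and 648 CPM in P26. Of 21 YAP and SRF targets, which include Tagln and Acta2, 8 reached an unadjusted p under 0.05, all as lower (7.55% of all genes), with medians of -0.47 and -0.22. Of the 5 smooth muscle markers, 4 did, all as lower, with medians of -1.10 and -0.72. The other, Myh11, was higher in P27 in both pairs (log2 0.15). Among the lower ones, Des, which is made in skeletal muscle too, had 2.14 and 2.29 CPM in P24, below P26 and P27.

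Immediate early genes, which serum and growth factors induce within minutes, had their lower median in the starved pair. Dusp1, a phosphatase that switches off MAP kinases, had 15.0 and 10.4 CPM in P27, against 40.7 and 31.0 CPM in P26 (2.88-fold lower, log2 -1.53 ± 0.18, edgeR adjusted p = 0.066). Jun, a subunit of AP-1, had 99.5 and 62.6 CPM in P27, against 142 and 113 CPM in P26 (log2 -0.70 ± 0.14). P24 was higher than both passages in either gene, with 95.2 and 121 CPM of Dusp1. Of 21 immediate early genes, 5 reached an unadjusted p under 0.05, all as lower (7.55% of all genes), with medians of -0.07 in the serum-fed and -0.67 in the serum-starved pair. The 17 ERK feedback genes showed the reverse split, -0.65 and 0.03, with 5 at that level, all as lower. Among them was Dusp4, with 42.5 and 24.8 CPM in P27, against 70.6 and 40.6 CPM in P26.

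Growth and p53 genes had their lower medians in the serum-fed pair. Of 20 genes of ribosome biogenesis and MYC targets, 0 were higher in the serum-fed pair and 7 in the serum-starved pair, and the medians were -0.97 and -0.07. Npm1, nucleophosmin, had 682 CPM in the serum-fed and 457 CPM in the serum-starved P27 library, against 1311 and 610.4 CPM in P26. Of 18 p53 targets, 8 reached an unadjusted p under 0.05, all as lower (7.55% of all genes), with medians of -0.75 and -0.05. Cdkn1a, the cell cycle inhibitor p21, had 78.5 and 44.8 CPM in P27, against 165 and 77.1 CPM in P26 (log2 -0.94 ± 0.14, edgeR adjusted p = 0.106).

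The medians of the cell cycle lists showed no such gap. The 24 mitosis genes had medians of 0.08 and 0.02, and the 24 genes of DNA replication 0.06 and -0.04. At an unadjusted p under 0.05, 2 mitosis genes were higher and 0 lower, and 1 replication gene was higher and 2 lower (7.17% and 7.55% of all genes). DESeq2 called these 2 as lower (1.87% of the genes to which it gave an adjusted p). They were Ccne1 (35.8 and 26.4 CPM in P27, against 60.0 and 44.4 CPM in P26) and Rrm2 (181 and 125 CPM, against 281 and 191 CPM). Ccnd1, the D cyclin that growth factors induce, had 181 and 72.5 CPM in P27, against 548 and 99.4 CPM in P26 (log2 -1.04 ± 0.27, edgeR adjusted p = 0.222).

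Endoplasmic reticulum chaperones and genes of the unfolded protein response, which raises them when unfolded proteins build up, had small differences in 1 direction. Of 18 genes, 18 were higher in P27 in both pairs (64.8% of all genes had the same sign in both, in either direction). Their medians were 0.34 and 0.47, and 9 reached an unadjusted p under 0.05 (7.17% of all genes as higher). Xbp1, a transcription factor of this response, had 82.5 and 116 CPM in P27, against 57.1 and 60.8 CPM in P26 (log2 0.72 ± 0.16, edgeR adjusted p = 0.172). Hspa5, the main chaperone of that compartment (chosen after its values were seen), had 1643 and 2326 CPM in P27, against 1169.8 and 1187 CPM in P26. The passages did not overlap in either, and each difference was under 2-fold.

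Several single genes stood with the smallest p. Vldlr, a lipoprotein receptor that also binds reelin, had 133 and 57.6 CPM in P27, against 50.3 and 16.99 CPM in P26 (2.96-fold, log2 1.57 ± 0.16, edgeR adjusted p = 0.066). Rcn3, a calcium-binding protein of the secretory pathway, had 63.7 and 179 CPM in P27, against 28.3 and 72.9 CPM in P26. Atp2a3, a calcium pump of the endoplasmic reticulum, had 24.4 and 8.08 CPM in P27, against 6.73 and 2.27 CPM in P26. Trim66, a chromatin reader, had 21.6 and 6.69 CPM in P27, against 5.09 and 1.10 CPM in P26. In these 4 genes P27 was higher within each growth condition. P24 was below P27 in each, with 11.9 and 16.6 CPM of Vldlr.

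On the lower side were genes of other lineages at low levels. Krt19, a keratin of simple epithelia, had 3.14 and 0.195 CPM in P27, against 18.6 and 1.26 CPM in P26 (6.18-fold lower, log2 -2.63 ± 0.28, edgeR adjusted p = 0.066), and 48.4 and 15.8 CPM in P24. Mcpt8, a protease of basophils, had 0.485 and 0.252 CPM in P27, against 6.52 and 2.21 CPM in P26 (log2 -3.47 ± 0.37, same adjusted p). Krt18, another keratin of such epithelia, was higher in P27, with 6.38 and 4.09 CPM in P27, against 3.67 and 1.31 CPM in P26.

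The matrix genes were divided. Fmod, fibromodulin, which binds collagen fibrils, had 2.06 and 51.6 CPM in P27, against 0.134 and 9.23 CPM in P26 (7.60-fold, log2 2.93 ± 0.34, edgeR adjusted p = 0.0665). Col6a1 and Col6a2, chains of collagen VI, had 130.1 and 517 CPM and 44.6 and 256 CPM in P27, against 32.9 and 280.0 CPM and 9.02 and 131 CPM in P26. Vcan, the proteoglycan versican, had 50.9 and 48.9 CPM in P27, against 119 and 111 CPM in P26 (log2 -1.22 ± 0.13). Of the 24 matrix genes other than collagens that were tested, 8 reached an unadjusted p under 0.05 as higher and 5 as lower, and of 19 collagens 5 and 1 (7.17% and 7.55% of all genes). Fibroblast markers, which include collagen genes, summed to 2782 and 7689 CPM in P27, against 1975.5 and 6424.5 CPM in P26, and their part in these values was not tested.

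Spp1, osteopontin, was among the lower ones, with 2034 and 862 CPM in P27, against 4122 and 1581 CPM in P26. The proteases and their inhibitors were split as well, with an unadjusted p under 0.05 in 5 as higher and 3 as lower of 22 (7.17% and 7.55% of all genes). Timp3, an inhibitor of matrix proteases whose mutation causes a macular dystrophy in humans, had 452 and 665 CPM in P27, against 146 and 388 CPM in P26. Mmp10, stromelysin, had 4.64 and 2.21 CPM in P27, against 7.98 and 11.9 CPM in P26.

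Insulin-like growth factor binding proteins had ratios of both signs. Igfbp4 had 22.2 and 7.23 CPM in P27, against 3.19 and 2.03 CPM in P26 (4.94-fold, log2 2.30 ± 0.31, edgeR adjusted p = 0.0906). Igfbp3 had 11.8 and 14.1 CPM in P27, against 24.4 and 47.7 CPM in P26, and Igfbp7 had 57.8 and 52.6 CPM in P27, against 122 and 96.4 CPM in P26. Of 17 genes of this axis 3 reached an unadjusted p under 0.05 as higher and 6 as lower (7.17% and 7.55% of all genes). Igf2, the growth factor itself, was among the lower, with 64.0 and 105 CPM in P27, against 86.8 and 266 CPM in P26.

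The nuclear genes of the respiratory chain were lower in P27 in both pairs in 23 of 25 (64.8% of all genes had the same sign in both, in either direction). Their medians were -0.32 and -0.20. An unadjusted p under 0.05 was reached by 6, all as lower (7.55% of all genes, and 7.17% as higher). Uqcrfs1, the iron-sulfur subunit of complex III, had 99.1 and 79.7 CPM in P27, against 135 and 104 CPM in P26 (log2 -0.43 ± 0.13). Of the 13 mitochondrially encoded genes 7 were tested, 4 were lower in both pairs and 2 reached an unadjusted p under 0.05, both as lower, with medians of -0.26 and -0.45. The one with the lowest ratio, mt-Nd1, a subunit of complex I, had 1887 and 2295 CPM in P27, against 4357 and 3596 CPM in P26. Of the glycolysis and HIF targets, 5 of 24 reached that level as higher and 1 as lower, with medians of 0.15 and 0.10. P4ha1, a collagen prolyl hydroxylase subunit that HIF induces, had 355 and 269 CPM in P27, against 136 and 148 CPM in P26 (log2 1.11 ± 0.17, edgeR adjusted p = 0.106). Hk2, hexokinase 2, had 40.5 and 20.3 CPM in P27, against 80.1 and 28.9 CPM in P26.

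**Figure D5:**
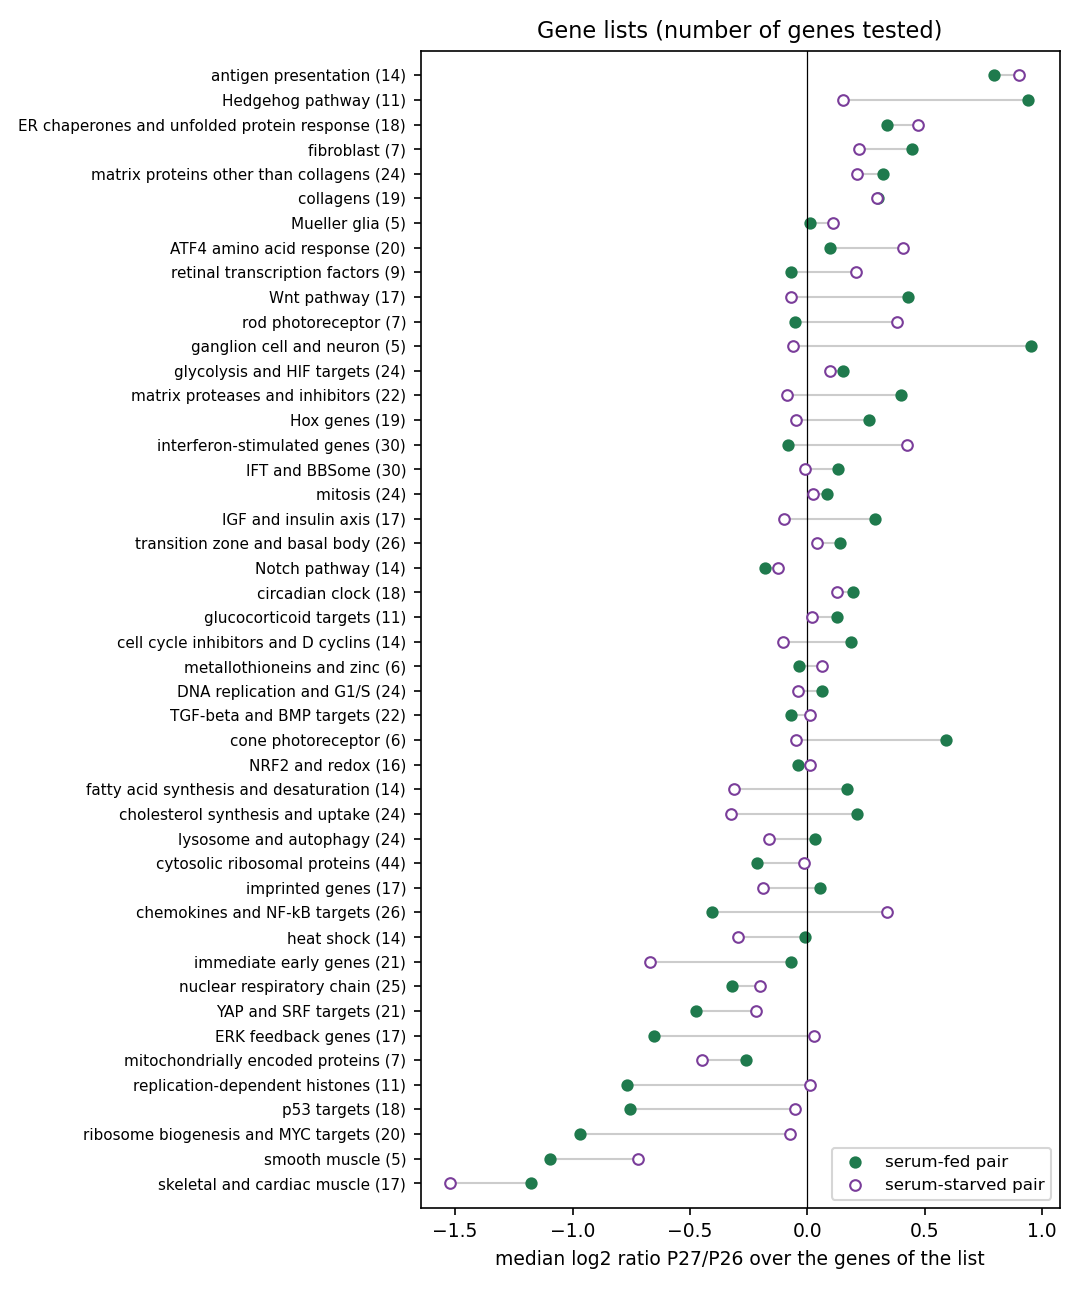
Median log2 ratio of P27 over P26 (x axis) over the genes of each of 46 lists with at least 5 genes tested, in the serum-fed pair (filled) and the serum-starved pair (open), with the number of genes tested in brackets. The muscle list is lowest at -1.18 and -1.52, antigen presentation is at 0.80 and 0.90, and many lists are near 0 in 1 pair or in both.

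The 30 genes of intraflagellar transport and the BBSome had medians of 0.13 and -0.01, and 5 reached an unadjusted p under 0.05, all as higher (7.17% of all genes). Bbs1, a BBSome subunit, had 24.7 CPM in both P27 libraries, against 12.3 and 18.4 CPM in P26. The 26 genes of the transition zone and basal body had medians of 0.14 and 0.04. Pax6, the master regulator of eye development, had 299 and 453 CPM in P27, against 179 and 391 CPM in P26 (log2 0.46 ± 0.17, edgeR adjusted p = 0.312), and 118 and 183 CPM in P24. Of the 23 retinal transcription factors on their list, Pax6 included, 9 were tested, with medians of -0.07 and 0.21. Of these, 1 reached an unadjusted p under 0.05 as higher and 1 as lower (7.17% and 7.55% of all genes). The lower one was Pou4f1, a factor of retinal ganglion cells, with 0.288 and 0.344 CPM in P27, against 0.804 and 0.884 CPM in P26. Guca1a, a guanylate cyclase activator of photoreceptors, had 1.47 and 3.74 CPM in P27, against 0.697 and 2.40 CPM in P26.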

How the data were processed

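Messenger RNA of 661W cells was selected by polyA, made into stranded libraries and read as 75 bp single ends on 4 lanes. Per the labels and methods, STAR placed the reads on GRCm38/mm10 and HTSeq (union mode, reverse strand) gave a count per gene, and the authors deposited these raw counts without normalization. No source used here gives the versions of these tools. A deposited DESeq2 comparison by growth condition, with fold changes and p-values, was not used.

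Of 38803 genes, 27 whose names had become dates were left out (0.283% to 0.301% of counts in the 4 libraries), and 37280 of the remaining 38776 matched GENCODE M21. Each passage served as a group of 2 libraries. The quasi-likelihood F-test of edgeR was run with growth condition and passage as terms (TMM factors 0.976 to 1.02, filterByExpr, Benjamini-Hochberg over 15762 genes, called at an adjusted p under 0.05). Log2 ratios within a growth condition used a prior count of 2. Where a library had 0 counts, up to 3 are allowed by counting error alone, or 0.0344 to 0.0402 CPM. Members, lists, tests and named genes were chosen with earlier results of these data known. Named genes were the 10 per direction with the smallest p (or the largest change, if called) that had a mean of 1 CPM and the same sign in both pairs, up to 4 per list with the smallest p, and 5 per opposite pattern. For the first of these rules, genes known only by a Gm number, a clone name or an accession were skipped. Further genes were chosen after their values were seen, such as H2-D1, H2-T23, B2m, Tap1, Tap2, Psmb10, Nlrc5, Myod1, Tmem8c and Hspa5. Tnnt3 and Acta1, drawn with the muscle genes, were chosen in this way too. Lists were described by counts and medians. Alternatives were DESeq2, limma-voom, size factors by RLE or by library totals, no filter, 10 counts in every library, no growth condition, all 6 libraries, each P27 and P26 library left out of those 6 in turn, each pair alone and a threshold of 0.01. The work used edgeR 4.0.16, limma 3.58.1 and DESeq2 1.42.0 in R 4.3.3, with pandas 2.3.3 and matplotlib 3.10.9 in Python 3.11.15.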

Additional observations from a re-analysis of the deposited data

Results flagged for a closer look

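In some gene lists and genes the ratio of P27 to P26 had opposite signs in the serum-fed and the serum-starved pair. With 1 culture of each kind the difference between the pairs was not tested. Values are log2 ratios of P27 over P26.

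Cholesterol synthesis and uptake genes had a median of 0.21 in the serum-fed pair and -0.33 in the serum-starved pair. Among them was Lss, lanosterol synthase, with 49.8 and 156 CPM in P27, against 56.8 and 277 CPM in P26, where the gap lay in the starved cells. Fatty acid synthesis and desaturation genes had medians of 0.17 in the serum-fed and -0.31 in the serum-starved pair, with Fasn, fatty acid synthase, at 336 and 677 CPM in P27, against 317 and 1002 CPM in P26. Chemokines and NF-kB targets had the reverse signs, -0.41 in the serum-fed and 0.34 in the serum-starved pair. Cell cycle inhibitors and D cyclins had 0.19 in the serum-fed and -0.10 in the serum-starved pair.

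Chemokine genes were among the single genes of that kind. Cxcl10, which attracts T cells, had -1.62 in the serum-fed and 0.70 in the serum-starved pair (15.7 and 25.3 CPM in P27, against 47.5 and 15.5 CPM in P26), and Ccl5, which attracts T cells too, had -0.92 in the serum-fed and 0.69 in the serum-starved pair. Sdpr, a protein of caveolae, had -1.08 and 0.66, and Erdr1 had -0.74 and 0.74.

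Other genes of opposite sign named by the rule were 5 of the library pattern described above and Gm9800, which was not among its 15 genes. Gm10075 had 9.39 in the serum-fed and -9.13 in the serum-starved pair. In the same pairs, Gm7901 had 4.00 and -3.97, Gm12696 4.32 and -3.90, Gm4202 4.21 and -3.81, Gm9800 1.62 and -1.38, and Gm10263 -4.54 and 4.10.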

How the results depend on the processing

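The number of calls depended on the setting. Against 1 higher and 0 lower gene, DESeq2 called 250 and 255, no filter on low counts 443 and 403, library totals 14 and 18, limma-voom 0 higher, no growth condition 0 higher, a threshold of 0.01 0 higher, 10 counts in every library 6 lower and all 6 libraries 1 lower. Leaving 1 of the P27 and P26 libraries out of the 6 gave 0 to 115 higher and 0 to 110 lower genes, both 0 without the serum-fed P27 library and both the most (115 and 110) without the serum-starved P26 library. The 20 genes named for the smallest p kept their sign in all 12 settings, and DESeq2 and the unfiltered fit each called all 20. These genes were picked from the same libraries for a small p and the same sign in both pairs. That they kept their sign was thus largely set by the choice and is no separate support. H2-Q6 was no longer called with limma-voom, without growth condition and without the serum-fed P27 library. Gm10075 ran between -9.27 and 9.32 over the fits with 1 library left out, at its ends without the serum-fed P27 and without the serum-starved P26 library, the 2 that stand apart in it. Of 223 named genes, signs changed 64 times over the settings among genes below the threshold in both fits. The cause of the shifts in count was not tested. With growth condition as a term, the fit already compared P27 with P26 within the serum-fed and the serum-starved pair. A test with repeat cultures was not possible, because each passage has 1 culture per growth condition. Genes with a few counts over the 4 libraries, such as Opn1mw and Pde6c, could not be compared at this depth.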

Other observations

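Some genes of developmental signalling had different levels in P27 and P26, none past the adjusted threshold. Nkd1, an inhibitor of Wnt signalling that Wnt itself induces, had 4.41 and 2.20 CPM in the serum-fed and serum-starved P27 libraries, against 0.644 and 0.598 CPM in P26 (log2 2.31 ± 0.38, edgeR adjusted p = 0.119), and P24 had 0.139 and 0.321 CPM. Of the 17 Wnt genes tested, 3 reached an unadjusted p under 0.05 as higher and 3 as lower (7.17% and 7.55% of all genes). Notch3, a Notch receptor, had 98.3 and 104 CPM in P27, against 31.8 and 82.2 CPM in P26, and 8.23 and 22.5 CPM in P24. In the Hedgehog list 5 of 11 genes reached that level as higher and 1 as lower, with medians of 0.94 in the serum-fed and 0.15 in the serum-starved pair. Boc, a Hedgehog co-receptor that also acts in muscle differentiation, had 8.73 and 12.9 CPM in P27, against 4.45 and 7.46 CPM in P26.

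Among TGF-beta and BMP targets, Tgfbi, a matrix protein whose gene TGF-beta induces, had 11.6 and 47.0 CPM in P27, against 2.39 and 19.965 CPM in P26 (log2 1.72 ± 0.28, edgeR adjusted p = 0.116). Id2, an inhibitor of MyoD type factors that BMP induces, had 2.38 and 12.4 CPM in P27, against 5.91 and 27.9 CPM in P26 (log2 -1.26 ± 0.21, edgeR adjusted p = 0.12). Mt2, a metallothionein that metals and glucocorticoids induce, had 70.2 and 39.9 CPM in P27, against 114 and 74.8 CPM in P26, and 242 and 191 CPM in P24. Neu1, a lysosomal sialidase whose gene lies within the class I stretch of chromosome 17, had 27.6 and 50.2 CPM in P27, against 53.3 and 94.0 CPM in P26 (log2 -0.94 ± 0.14, edgeR adjusted p = 0.105), in the direction opposite to the class I genes around it. Ptgs2, the inducible cyclooxygenase, had 37.9 and 26.4 CPM in P27, against 148 and 47.4 CPM in P26, and 399 and 123 CPM in P24.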
